A study of Mus musculus with 12 samples.

Results

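Tumours of mice given the peptide minP1 together with an antibody against PD-L1 were compared with tumours of control mice, across every gene symbol in the deposited tables. The comparison used 6 of the 12 samples, the 3 titled minP1_PDL1 and the 3 titled Ct. Of 19921 symbols, 5443 had enough counts to be tested. The combination group carried anti-PD-L1 (clone 10F.9G2, 200 µg into the peritoneum on days 4 and 8) and minP1 (0.08 µg by the same route on day 9). The control group carries the label control, and the sources used here give it no vehicle. All mice were BALB/c of wild-type genotype, of an age not given, with 200000 Colon26 cells under the skin of the right flank. Colon26 is a mouse colon carcinoma line. Each tumour came from a separate mouse and was taken on day 10, so the spread within a group includes the spread between animals. Groups of 3 mice given minP1 alone or anti-PD-L1 alone shared the estimate of spread. The treatment label of the combination samples names only the antibody, after a plus sign, and the peptide stands in their titles, so every result rests on those titles.

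The peptide minP1 is taken from HMGN1, a nucleosome-binding protein. Outside the cell HMGN1 acts as an alarmin and stimulates dendritic cells through the receptor TLR4. PD-L1 on tumour and myeloid cells engages PD-1 on T cells and restrains them, and antibodies against PD-L1 block that contact. Tumours grown from Colon26 cells hold many macrophages, monocytes and neutrophils, which secrete proteases and chemokines, present antigen and respond to interferons. The cells profiled were those left after digestion and a density step meant to remove tumour cells and dead cells. The libraries read the 5′ end of polyadenylated RNA, about 1 tag per captured transcript. Levels are CPM, counts scaled to a common library size after trimmed-mean normalization, and need no correction for transcript length. In such bulk samples, fewer cells of a type and less RNA per cell cannot be told apart.

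The libraries were shallow, and of the 6 compared those of the combination were the smallest, with totals of 133917, 196109 and 176590 counts, against 375204, 285753 and 473273 in control. One count was worth 5.64 to 8.54 CPM in combination libraries and 2.24 to 3.66 CPM in control libraries. The brain cytoplasmic RNA Bc1 and Lrrc17, whose counts are nearly equal in each library, together took 5.04%, 6.32% and 2.49% of combination counts, against 2.34%, 1.89% and 1.36% of control counts. Ribosomal RNA took 0.903%, 0.986% and 1.23% in combination libraries, against 2.62%, 2.59% and 3.91% in control libraries. The first principal component (49.7% of the variance) ran from -33.6 to -26.7 in control and from 30.9 to 59.75 in combination libraries. On it minP1 replicate 2 lay at -0.206 and anti-PD-L1 replicate 1 at 17.3, above the others of their groups. These libraries also had the largest Bc1 and Lrrc17 share of their groups, 4.17% and 4.425%. In the combination, replicate 1 was highest on this component and replicate 2 had the largest share. Combination replicate 3 stood apart on the second principal component (8.51% of the variance), at 32.6, while the other combination libraries lay at -4.02 and -4.27. The tests were therefore also run without each library in turn, with the level of Bc1 and Lrrc17 as a covariate, and with the number of genes detected at equal depth as a covariate. The part of depth, RNA quality or these transcripts in the results was not tested beyond those fits.

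Markers of the cells were checked next. Of the 7 macrophage markers, all were detected, and their summed level was 1123 to 2373 CPM in combination tumours, against 781 to 870 CPM in control tumours. The 5 neutrophil markers in the tables summed to 364 to 429 CPM in combination and 311 to 372 CPM in control tumours, and the 3 monocyte markers to 226 to 328 and 168 to 226 CPM. The 5 fibroblast markers lay at 705 to 1093 CPM in combination and 890 to 1323 CPM in control tumours, which overlap. The 6 T cell markers in the tables summed to 143 to 239 CPM in combination and 32.9 to 56.0 CPM in control tumours, and Thy1 gave 47 of the 82 combination counts and 35 of the 50 control counts. Of the 7 epithelial tumour-cell markers 4 were analysed, and they summed to 0 to 59.7 CPM in combination and 3.66 to 15.7 CPM in control tumours, or 10 counts over the 3 combination libraries and 12 over the 3 control libraries. The part of a different cell mixture in the results was not tested.

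In the combination, 896 genes rose (16.5% of those tested) and 996 fell (18.3%), by edgeR's quasi-likelihood test at an adjusted p under 0.05. That is 1892 genes or 34.8%, and 2430 had an unadjusted p under 0.05. The member counts of each list below stand against these shares of 16.5% and 18.3%. In 1111 tested genes (20.4%) all 3 combination libraries lay above all 3 control libraries, and in 1390 (25.5%) they lay below them. Among the genes that passed, 819 of the higher and 953 of the lower ones had no overlap between the groups. Changes over 4-fold were found for 186 higher and 316 lower genes. The median log2 fold change of all tested genes was -0.06, and the plot of level against change shows both directions at all levels. Without combination replicate 2 the lower genes numbered 660, and with all libraries thinned to the depth of the shallowest 392 rose and 389 fell. Of the calls, 497 higher and 494 lower ones held whichever of the 6 libraries was left out. With the Bc1 and Lrrc17 covariate 316 of the higher and 400 of the lower calls remained, and with the detected-gene covariate 275 and 427. After ±, a fold change has its SE and a level in CPM has its SD (n = 3 in each group).

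**Figure D1:**
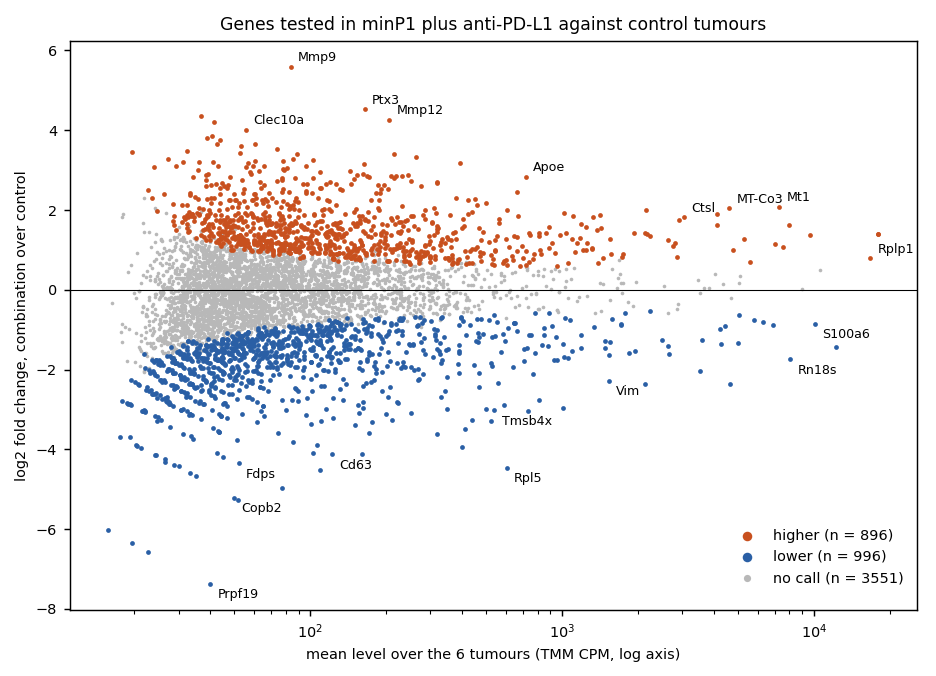
Mean level over the 6 tumours (TMM CPM, log axis) against the log2 fold change of the combination over control for the 5443 tested genes. The 896 higher genes include Mmp9, Ptx3 and Mmp12, and the 996 lower genes include Prpf19, which had no count in any combination library.

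Among the 20 genes that rose most were secreted products and receptors of myeloid cells. Mmp9, a gelatinase stored in neutrophil granules (GRCm38 annotation, chr2:164940780-164955850, plus strand), reached 230.5, 143 and 118 CPM in combination tumours, against 2.86, 7.31 and 0 CPM in control tumours. Its 72 combination counts against 3 control counts put it 55.6-fold higher, 95% exact interval 18.3 to 276 (adjusted p = 1.04e-06). Ptx3, a soluble pattern recognition molecule (chr3:66219910-66225805, plus strand), had 580.5, 161 and 209 CPM in combination tumours, against 5.72, 7.31 and 22.4 CPM in control tumours (log2 fold change 4.53 ± 0.58, adjusted p = 6.19e-06). Mmp12, the macrophage elastase (chr9:7344381-7369499, plus strand), had 469.5, 328 and 384 CPM in combination tumours, against 14.3, 3.66 and 35.8 CPM in control tumours (log2 fold change 4.26 ± 0.44, adjusted p = 9.03e-07). No overlap was required for the choice of these genes, and replicate 1 held the highest value of Mmp9, Ptx3 and Mmp12. Clec10a, a galactose-binding lectin of macrophages and dendritic cells, rose by 4.02 ± 0.75 log2 units, Cd300a, an inhibitory receptor of myeloid cells, by 3.75 ± 0.65, Fabp5, a fatty acid-binding protein, by 3.65 ± 0.47, and Arg2, the mitochondrial arginase, by 3.52 ± 0.56. Fas, the death receptor, rose by 3.42 ± 0.40 and Plac8, a small protein of monocytes and granulocytes, by 3.43 ± 0.59. Genes better known outside the immune system were among the same 20, including Tbx18, a T-box transcription factor (3.66 ± 0.79), and Prkag3, a gamma subunit of the AMP-activated kinase known from skeletal muscle (3.29 ± 0.66). A530040E14Rik, an antisense locus in the annotation, had 31 combination counts against 3 in control, which is 23.9-fold higher, 95% exact interval 7.46 to 122. The call ended for Tbx18 and Prkag3 with either covariate (adjusted p 0.123 to 0.309), and for Clec10a with the detected-gene covariate (adjusted p = 0.056). The log2 fold change moved by over 1.5-fold for Ptx3, to 3.87 without combination replicate 1 and to 5.45 without control replicate 3, Mmp12, to 5.27 without control replicate 3, Clec10a, to 3.24 without combination replicate 1 and to 4.95 without control replicate 1 (2 control counts left), Cd300a, to 4.43 without control replicate 3 (2 control counts left), and Arg2, to 4.22 without control replicate 1.

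Among the genes that fell most, 4 had no count in any combination library. Prpf19, a ubiquitin ligase of the spliceosome, had 97.3, 87.8 and 56 CPM in the control tumours, so it was at least 12-fold lower in the combination, with the group set to the floor of 3 summed counts. On the same floor Ccser2 was at least 7.2-fold lower, Tinagl1, a matricellular protein, at least 6.05-fold, and Wnt10a, a Wnt ligand, at least 4.75-fold. These genes are absent from 3 shallow libraries, and their fitted fold changes depend on the prior count. Copb2, a coatomer subunit, had 1 combination count against 104 in control (44.9-fold lower, 95% exact interval 7.89 to 1791). Selenof, a selenoprotein of the endoplasmic reticulum, had 0, 0 and 22.6 CPM in combination tumours, against 143, 299.8 and 190.3 CPM in control tumours (log2 fold change -4.53 ± 0.68, adjusted p = 3.07e-05). Cd63, a tetraspanin of late endosomes and granules, had 0, 5.97 and 28.2 CPM in combination tumours, against 229, 234 and 235 CPM in control tumours (log2 fold change -4.13 ± 0.57, adjusted p = 1.38e-05). Aldh2, the mitochondrial aldehyde dehydrogenase, had 2 counts in the combination against 94 in control (20.3-fold lower, 95% exact interval 5.47 to 170.1). Gmnn, geminin, which restrains replication licensing, had 1 count against 48 (20.7-fold lower, 95% exact interval 3.55 to 836). No overlap between the groups was required for their choice. A single library moved the fold change by over 1.5-fold for Selenof, to -3.86 without combination replicate 2 and with no combination count left without combination replicate 3, and Cd63, to -5.87 without combination replicate 3 (1 combination count left).

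Most of the few neutrophil genes that could be tested rose, and 1 chemokine receptor fell. Of the 27 listed neutrophil genes in the tables, 7 were tested, 5 rose and 1 fell (median log2 fold change 1.66). S100a9, a calcium-binding alarmin, had 188, 155 and 181 CPM in combination tumours, against 8.59, 3.66 and 40.3 CPM in control tumours (log2 fold change 3.11 ± 0.44, adjusted p = 1.98e-05). Hdc, the enzyme that makes histamine, had 76.8, 95.5 and 135 CPM in combination tumours, against 11.4, 7.31 and 13.4 CPM in control tumours (log2 fold change 3.18 ± 0.47, adjusted p = 2.46e-05). Csf3r, the receptor for G-CSF, rose by 1.25 ± 0.38. S100a9, Hdc and Csf3r were higher in every combination tumour than in any control tumour, and S100a9 was highest among controls in replicate 3. Cxcr2, the receptor through which neutrophils follow ELR chemokines, fell instead, with 119.5, 113 and 135 CPM in combination tumours, against 315, 263 and 251 CPM in control tumours (log2 fold change -1.16 ± 0.26, adjusted p = 0.0017). Il1r2, the decoy receptor for IL-1, rose by 1.66 ± 0.56, while Lcn2, lipocalin of the granules, did not pass (0.61 ± 0.93, adjusted p = 0.64), with 10 of its 12 combination counts in replicate 3 and 18 of its 19 control counts in replicate 3. The other 20 listed genes had 75 counts in all in the combination and 96 in control, or 162 and 89.8 CPM over each group. Among neutrophil granule and receptor genes, 3 higher and 1 lower calls held whichever library was left out, 3 and 1 with either covariate, and 2 and 1 at equal depth. The call was lost for Csf3r and Il1r2 with either covariate (adjusted p 0.12 to 0.316). Calls were also lost for Csf3r without combination replicate 3 (adjusted p = 0.0691), Il1r2 without combination replicate 1, combination replicate 2 or control replicate 2 (adjusted p 0.0516 to 0.0944), and Csf3r and Il1r2 by DESeq2's Wald test. Without 1 library the fold change shifted by over 1.5-fold for S100a9, to 4.65 without control replicate 3.

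Inflammatory monocyte genes rose in part: 4 of 14 tested members rose and 1 fell (median 0.64). F10, coagulation factor X, had 367, 245 and 135 CPM in combination tumours, against 40.1, 65.8 and 15.7 CPM in control tumours (log2 fold change 2.66 ± 0.45, adjusted p = 0.000126). Ly6a, the stem cell antigen that interferon induces, had 555, 394 and 559 CPM in combination tumours, against 83, 132 and 392 CPM in control tumours (log2 fold change 1.27 ± 0.38, adjusted p = 0.012). Fn1, fibronectin, rose by 0.59 ± 0.22. Lyz2, lysozyme of myeloid cells, was the member that fell (log2 fold change -1.36 ± 0.36, adjusted p = 0.00558). Ccr2, the receptor that brings monocytes out of the marrow, and Ly6c2 did not pass, at -0.23 ± 0.28 and 0.72 ± 0.41. In the list of inflammatory monocyte genes, 2 higher and 1 lower calls held with any library left out, 3 and 0 with the detected-gene covariate, and 2 and 1 at equal depth. By library left out, those remaining were 2 higher without control replicate 2. No call was made for Lyz2 with either covariate (adjusted p 0.0875 to 0.156), and for Fn1 with the detected-gene covariate (adjusted p = 0.0561). Other lost calls were those for Ly6a without control replicate 2 (adjusted p = 0.0503), Fn1 without combination replicate 3, control replicate 1, control replicate 2 or control replicate 3 (adjusted p 0.0524 to 0.159), Fn1 at equal depth, Fn1 with no filter on low counts, and Fn1 with the 6 samples alone. A shift of over 1.5-fold came from 1 library for Ly6a, to 2.23 without control replicate 3.

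Of the immune lists, that of tumour macrophages held the most higher genes. In this list, 13 of 23 tested members rose and 2 fell (median 1.26). Apoe, the lipid-carrying apolipoprotein of resident and lipid-laden macrophages, had 1759, 609 and 1405 CPM in combination tumours, against 126, 241 and 163 CPM in control tumours (log2 fold change 2.83 ± 0.33, adjusted p = 2.42e-06). Ctsl, cathepsin L, a lysosomal protease, had 5771, 4816 and 3701 CPM in combination tumours, against 1700.0, 1104 and 1241 CPM in control tumours (log2 fold change 1.82 ± 0.23, adjusted p = 6.06e-06). C1qc, a chain of the complement recognition molecule that macrophages make, had 666, 388 and 367 CPM in combination tumours, against 189, 197 and 197 CPM in control tumours (log2 fold change 1.26 ± 0.27, adjusted p = 0.000955). All 3 genes were higher in each combination tumour than in each control tumour, and Apoe was lowest in combination replicate 2. Ms4a7 rose by 1.59 ± 0.31, the mannose receptor Mrc1 by 1.13 ± 0.29 and arginase Arg1 by 1.11 ± 0.30. Spp1, osteopontin, fell (-0.75 ± 0.26), with 4307 ± 679.9 CPM in combination and 7257 ± 712 CPM in control tumours. Spp1 had the highest control level of the list. C1qa and C1qb, the partner chains of C1qc, did not pass, at 0.71 ± 0.34 and -0.48 ± 0.42. Of the calls among tumour macrophage genes, 12 higher and 1 lower ones held in all 6 leave-outs, 8 and 1 with the detected-gene covariate, and 9 and 2 at equal depth. Of the genes named here, the call was lost for Mrc1 and Spp1 with either covariate (adjusted p 0.133 to 0.504). The test also gave no call for Spp1 without combination replicate 1, combination replicate 2, control replicate 1 or control replicate 3 (adjusted p 0.0694 to 0.143), and Arg1 at equal depth. C1qa passed without combination replicate 3 (0.97, adjusted p = 0.0405).

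**Figure D2:**
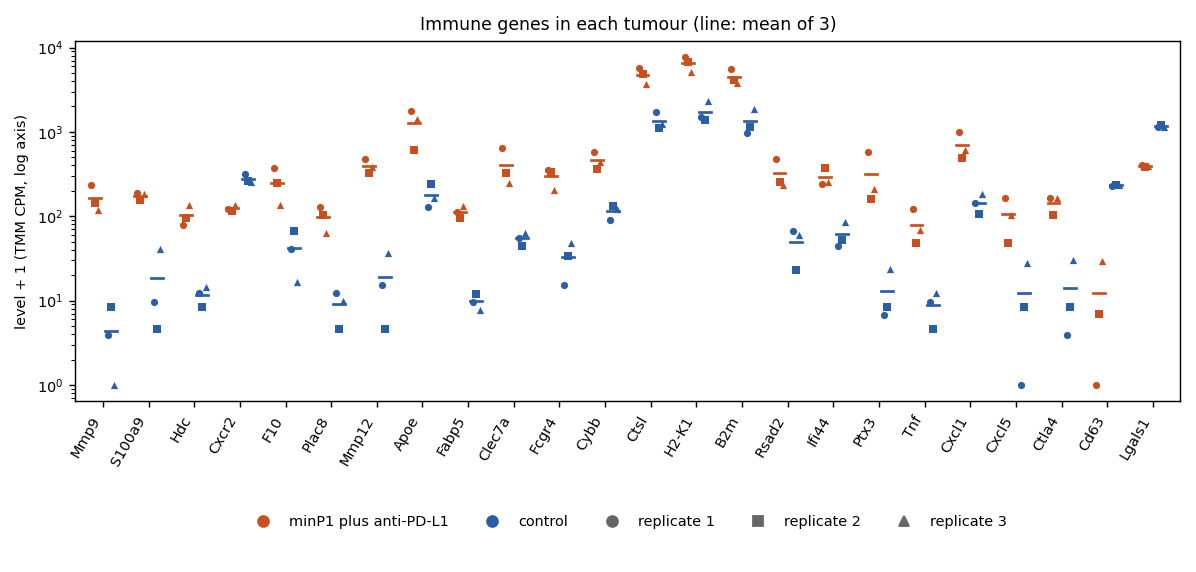
Level plus 1 (TMM CPM, log axis) of 24 immune genes in each of the 3 combination and 3 control tumours, with the symbol giving the replicate and the line the mean. Most genes lie higher in all combination tumours, while Cxcr2, Cd63 and Lgals1 lie lower.

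Some receptors of phagocytes rose, and most did not pass. Of the Fc and paired inhibitory receptor genes, 6 of 16 tested members rose and 0 fell (median 0.81), and of the C-type lectin and scavenger receptor genes, 5 of 11 tested members rose and 2 fell (median 0.42). Clec7a, dectin-1, which binds fungal beta-glucan, had 649, 328 and 248 CPM in combination tumours, against 54.4, 43.9 and 62.7 CPM in control tumours (log2 fold change 2.87 ± 0.33, adjusted p = 2.08e-06). Fcgr4, an activating receptor for IgG2 antibodies in the mouse, had 350.0, 334 and 203 CPM in combination tumours, against 14.3, 32.9 and 47 CPM in control tumours (log2 fold change 3.17 ± 0.37, adjusted p = 1.91e-06). Cd36, a scavenger receptor for oxidized lipid, had 119.5, 125 and 95.9 CPM in combination tumours, against 20, 18.3 and 15.7 CPM in control tumours (log2 fold change 2.63 ± 0.41, adjusted p = 4.87e-05). The groups did not overlap for these receptors, and combination replicate 1 had the most Clec7a. Inpp5d, the phosphatase SHIP1 that dampens Fc receptor signals, rose by 3.20 ± 0.53, and Cd300lf, an inhibitory receptor, by 2.26 ± 0.44. The galectins Lgals1 and Lgals3, soluble lectins that bind galactosides, fell (-1.58 ± 0.23 and -1.36 ± 0.34), with 401, 382 and 395 CPM of Lgals1 in combination and 1148, 1221 and 1144 CPM in control tumours. The summed level of the Fc and paired receptors was 1635 ± 247 CPM in combination and 821 ± 47.6 CPM in control tumours, and that of the C-type lectins and scavenger receptors was 2169.8 ± 524 CPM in combination and 2299.6 ± 28.9 CPM in control tumours. Whichever library was left out, 5 higher calls among Fc receptors and paired inhibitory receptors held, 5 with either covariate, and 2 at equal depth. Calls among C-type lectin and scavenger receptors held in all 6 leave-outs for 4 higher and 2 lower genes, 2 and 1 with the detected-gene covariate, and 3 and 2 at equal depth. Calls did not hold for Lgals3 with either covariate (adjusted p 0.0876 to 0.355).

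Lysosomal genes rose more often than they fell. Of 43 tested genes for lysosomal enzymes, membrane proteins and the proton pump, 16 rose and 3 fell, with a median of 0.44. Psap, the precursor of the saposins that help degrade sphingolipids, had 2245, 1766 and 2579 CPM in combination tumours, against 747, 885 and 1111 CPM in control tumours (log2 fold change 1.26 ± 0.22, adjusted p = 0.000172). Atp6v1b2, a subunit of the pump that acidifies the lysosome, had 657, 394 and 446 CPM in combination tumours, against 132, 117 and 107 CPM in control tumours (log2 fold change 2.06 ± 0.28, adjusted p = 1.14e-05). Lgmn, legumain, an asparagine-specific protease, had 1238, 913 and 1095 CPM in combination tumours, against 484, 464 and 300.1 CPM in control tumours (log2 fold change 1.38 ± 0.25, adjusted p = 0.000221). Each was higher in all 3 combination tumours. The membrane protein Lamp1 rose by 1.27 ± 0.22, the ganglioside activator Gm2a by 1.70 ± 0.38 and cathepsin B, Ctsb, by 0.99 ± 0.24. Ctsd, cathepsin D, did not pass (0.32 ± 0.23). Besides Cd63, Laptm4a, a transporter-like protein of late endosomes, fell (-2.75 ± 0.54). For lysosomal enzymes and proton pump, 10 higher and 2 lower calls remained in each of 6 leave-outs, 7 and 2 with the detected-gene covariate, and 12 and 2 at equal depth. Remaining calls dropped to 10 higher without control replicate 2. No call remained for Ctsb with the detected-gene covariate (adjusted p = 0.148). Left-out libraries moved the fold change by over 1.5-fold for Gm2a, to 2.30 without control replicate 3, and Laptm4a, to -3.74 without combination replicate 3 (3 combination counts left).

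Complement genes rose in 5 of 11 tested members and fell in 1 (median 1.05). C4b, the component whose cleavage follows C1 activation, had 102, 83.5 and 73.3 CPM in combination tumours, against 8.59, 14.6 and 29.1 CPM in control tumours (log2 fold change 2.19 ± 0.47, adjusted p = 0.00101). C1ra and C1s1, the proteases of the C1 complex, rose by 1.63 ± 0.43 and 1.36 ± 0.47, and Itgb2, the beta chain of the complement receptors on leukocytes, by 1.45 ± 0.41. C4b was low in every control tumour and did not overlap. C3, the central component, did not pass (1.05 ± 0.47). Masp1, a protease of the lectin pathway, fell, with 3 combination counts against 50 in control (7.2-fold lower, 95% exact interval 2.33 to 36.1). Among complement genes, 3 higher and 0 lower calls held whichever library was left out, 3 and 0 with the detected-gene covariate, and 1 and 0 at equal depth. The remaining calls numbered 3 higher without combination replicate 3. Calls went missing for Itgb2 and Masp1 with either covariate (adjusted p 0.0658 to 0.184), and for C1s1 with the detected-gene covariate (adjusted p = 0.123). Further calls ended for C1s1 without combination replicate 1, combination replicate 3, control replicate 1 or control replicate 2 (adjusted p 0.0706 to 0.117), Itgb2 without combination replicate 3 (adjusted p = 0.0756), Masp1 without combination replicate 1 or control replicate 3 (adjusted p 0.0549 to 0.1), and C1ra and C1s1 at equal depth. C3 passed with limma voom (1.37, adjusted p = 0.0374), without combination replicate 3 (1.33, adjusted p = 0.045), and without control replicate 3 (2.34, adjusted p = 0.000673). With 1 library left out, the fold change shifted by over 1.5-fold for C4b, to 2.85 without control replicate 3, C1ra, to 2.44 without control replicate 3, and C1s1, to 2.77 without control replicate 3.

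Class I antigen presentation genes rose in part. Of the class I genes, 10 of 21 tested members rose and 3 fell (median 0.70). H2-K1, a classical class I heavy chain, had 7691, 6738 and 5151 CPM in combination tumours, against 1499.7, 1397 and 2311 CPM in control tumours (log2 fold change 1.91 ± 0.25, adjusted p = 9.89e-06). B2m, the light chain that every class I molecule needs, had 5617, 4094 and 3842 CPM in combination tumours, against 962, 1141 and 1888 CPM in control tumours (log2 fold change 1.76 ± 0.26, adjusted p = 3.05e-05). Tap1, a subunit of the pump that brings peptides into the endoplasmic reticulum, had 359, 370.0 and 310.3 CPM in combination tumours, against 60.1, 69.5 and 181 CPM in control tumours (log2 fold change 1.69 ± 0.33, adjusted p = 0.000485). All 3 were higher in each combination tumour than in any control tumour. Calr, calreticulin, a chaperone of class I assembly, rose by 1.64 ± 0.25, Psme2, a subunit of the proteasome activator, by 1.06 ± 0.23, and the second classical heavy chain H2-D1 by 0.89 ± 0.27. Pdia3, the disulphide isomerase of the same loading complex, fell (-1.56 ± 0.28), and the nonclassical heavy chains H2-T23 and H2-M3 (-1.75 ± 0.37 and -2.59 ± 0.82). Class I heavy chains are similar in sequence and their reads may have been split between loci. On the class II side 2 of 8 tested genes rose, Lgmn and H2-DMb1 (1.46 ± 0.43), a chain of the peptide exchanger, while the class II chains H2-Aa and H2-Ab1 and the invariant chain Cd74 did not pass (0.87 ± 0.40, 0.70 ± 0.34 and 0.87 ± 0.40). In the list of MHC class I presentation genes, 6 higher and 2 lower calls held with any library left out, 6 and 2 with the detected-gene covariate, and 9 and 2 at equal depth. There was no call for H2-M3 and H2-DMb1 with either covariate (adjusted p 0.0955 to 0.274), and for Psme2 with the detected-gene covariate (adjusted p = 0.0792). The threshold was also missed for H2-D1 without control replicate 1 (adjusted p = 0.0548), H2-M3 without combination replicate 2, combination replicate 3 or control replicate 3 (adjusted p 0.0693 to 0.0879), H2-M3 by DESeq2's Wald test, and H2-DMb1 at equal depth. H2-Aa passed with the Bc1 and Lrrc17 covariate (1.85, adjusted p = 0.00354), without combination replicate 2 (1.27, adjusted p = 0.0248), and without control replicate 3 (1.56, adjusted p = 0.00734). H2-Ab1 passed with the Bc1 and Lrrc17 covariate (1.5, adjusted p = 0.0083), without combination replicate 2 (1.02, adjusted p = 0.0453), and without control replicate 3 (1.14, adjusted p = 0.0254). Cd74 passed with the Bc1 and Lrrc17 covariate (1.82, adjusted p = 0.00437), without combination replicate 2 (1.24, adjusted p = 0.032), and without control replicate 3 (1.75, adjusted p = 0.00208). The fold change moved by over 1.5-fold for Tap1, to 2.40 without control replicate 3, and H2-DMb1, to 2.68 without control replicate 3.

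Type I interferon-induced genes moved in both directions: 7 of 20 tested members rose and 2 fell, and the median was 0.17. Rsad2, viperin, an antiviral enzyme of the endoplasmic reticulum, had 478, 257 and 231 CPM in combination tumours, against 65.8, 21.9 and 58.2 CPM in control tumours (log2 fold change 2.64 ± 0.36, adjusted p = 1.17e-05). Ifi44 had 239, 376 and 254 CPM in combination tumours, against 42.9, 51.2 and 85.1 CPM in control tumours (log2 fold change 2.24 ± 0.34, adjusted p = 3.53e-05). Bst2, tetherin, which holds budding virus at the membrane, had 1989, 1808 and 1253 CPM in combination tumours, against 661, 655 and 732 CPM in control tumours (log2 fold change 1.30 ± 0.23, adjusted p = 0.000149). The 3 genes were higher in every combination tumour. Rtp4 rose by 2.07 ± 0.34, Slfn2 by 1.77 ± 0.44, Irf9, the DNA-binding part of the interferon-stimulated complex ISGF3, by 1.39 ± 0.38, and Ifit1, which binds viral RNA ends, by 1.48 ± 0.57. Ifitm3 and Ifitm2, membrane proteins that block viral entry, fell (-2.48 ± 0.56 and -1.35 ± 0.35). Isg15, a ubiquitin-like protein, did not pass (-0.82 ± 0.52). Of the calls among type I interferon-induced genes, 6 higher and 1 lower ones held in all 6 leave-outs, 4 and 1 with the detected-gene covariate, and 3 and 1 at equal depth. The call ended for Irf9, Ifit1 and Ifitm3 with either covariate (adjusted p 0.0534 to 0.348), and for Ifitm2 with the Bc1 and Lrrc17 covariate (adjusted p = 0.155), and for Slfn2 with the detected-gene covariate (adjusted p = 0.054). Calls were also lost for Ifit1 without combination replicate 1, combination replicate 2, combination replicate 3, control replicate 1 or control replicate 2 (adjusted p 0.0625 to 0.132), Ifitm2 without combination replicate 2 (adjusted p = 0.0543), Rtp4, Slfn2, Irf9 and Ifitm2 at equal depth, Ifit1 with no filter on low counts, and Ifit1 by DESeq2's Wald test.

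The start-site regions of these genes were read for the interferon-stimulated response element, which ISGF3 and other IRF proteins bind, searched as GAAANNGAA on both strands with overlapping matches counted. It occurred in 8.56% of all 32851 RefSeq windows, which run from 250 bases before to 50 bases after a start. Of the 7 list genes that rose, 6 had a window and 4 held a match, against 2 of 2 among those that fell and 6 of 8 among those that did not pass. The windows of 4 genes that rose are shown because they hold the element, with matches in capitals, 5′ to 3′ on the gene's strand (RefSeq, GRCm38.p6: Rsad2 at chr12:26456403-26456702, minus strand; Ifi44 at chr3:151749861-151750160, minus strand; Bst2 at chr8:71537423-71537722, minus strand; Ifit1 at chr19:34640639-34640938, plus strand).
Rsad2: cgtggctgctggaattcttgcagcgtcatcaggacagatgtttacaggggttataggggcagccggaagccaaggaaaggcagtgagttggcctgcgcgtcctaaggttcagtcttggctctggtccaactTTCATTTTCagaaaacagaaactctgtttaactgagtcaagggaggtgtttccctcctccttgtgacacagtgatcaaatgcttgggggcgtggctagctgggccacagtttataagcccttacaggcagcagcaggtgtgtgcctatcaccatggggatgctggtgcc
Ifi44: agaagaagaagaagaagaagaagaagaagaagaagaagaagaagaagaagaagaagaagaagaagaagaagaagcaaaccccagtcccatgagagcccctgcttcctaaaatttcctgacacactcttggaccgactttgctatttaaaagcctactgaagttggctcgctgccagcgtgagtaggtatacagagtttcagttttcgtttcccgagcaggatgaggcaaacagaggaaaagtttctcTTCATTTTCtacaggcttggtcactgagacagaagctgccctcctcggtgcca
Bst2: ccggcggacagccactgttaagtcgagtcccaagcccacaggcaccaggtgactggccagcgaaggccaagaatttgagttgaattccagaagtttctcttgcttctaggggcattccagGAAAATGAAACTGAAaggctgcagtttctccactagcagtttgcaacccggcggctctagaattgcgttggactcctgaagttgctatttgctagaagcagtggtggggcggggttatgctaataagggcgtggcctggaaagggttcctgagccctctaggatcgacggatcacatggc
Ifit1: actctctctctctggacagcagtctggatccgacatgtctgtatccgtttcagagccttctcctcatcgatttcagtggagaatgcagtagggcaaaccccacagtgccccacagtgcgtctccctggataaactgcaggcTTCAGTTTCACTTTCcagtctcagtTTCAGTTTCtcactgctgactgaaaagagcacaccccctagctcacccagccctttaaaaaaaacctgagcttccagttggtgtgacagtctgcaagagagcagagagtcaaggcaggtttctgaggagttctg
Rsad2 and Ifi44 held 1 match, Bst2 held 2 that share letters, and Ifit1 held 3, of which 2 share letters. A match is a description of the letters and not evidence of binding.

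Interferon gamma-induced genes rose in 4 of 20 tested members and fell in 1, a share of higher members near the 16.5% of all genes (median 0.57). Gbp2b, a guanylate-binding protein that attacks vacuoles of intracellular microbes, had 837, 597 and 1038 CPM in combination tumours, against 42.9, 91.4 and 389.6 CPM in control tumours (log2 fold change 2.19 ± 0.46, adjusted p = 0.000888). Irf1, the transcription factor that carries much of the interferon gamma response, had 273, 322 and 463 CPM in combination tumours, against 80.1, 95.1 and 253 CPM in control tumours (log2 fold change 1.28 ± 0.33, adjusted p = 0.00477). Ifngr1, the ligand-binding chain of the receptor, rose by 1.68 ± 0.32, and Gbp4 by 1.42 ± 0.44. The groups did not overlap for these 4 genes. Cxcl10, a T cell chemokine induced by interferons, did not pass (0.83 ± 0.36, adjusted p = 0.0714). Ifng itself had 0 counts in the combination and 2 in control, and Cxcl9 was not tested, with 0, 2 and 2 counts in combination libraries and 4, 6 and 26 in control libraries. Jak1, a kinase of interferon receptors, fell (-1.30 ± 0.47). The call was lost for Jak1 with either covariate (adjusted p 0.401 to 0.548). Other lost calls were those for Jak1 without combination replicate 1, combination replicate 2, control replicate 2 or control replicate 3 (adjusted p 0.0665 to 0.225), Jak1 with the 6 samples alone, Jak1 by DESeq2's Wald test, and Jak1 with limma voom. Cxcl10 passed with the 6 samples alone (0.82, adjusted p = 0.0442). A single library moved the fold change by over 1.5-fold for Gbp2b, to 3.63 without control replicate 3, Irf1, to 2.02 without control replicate 3, Gbp4, to 2.43 without control replicate 3, and Jak1, to -1.89 without combination replicate 3.

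The TNF, IL-1 and NF-kB list rose in 9 of 27 tested members and fell in 1 (median 0.32). Tnf, the cytokine itself, had 119.5, 47.7 and 67.7 CPM in combination tumours, against 8.59, 3.66 and 11.2 CPM in control tumours (log2 fold change 3.11 ± 0.62, adjusted p = 0.000567). Tnfaip6, a hyaluronan-binding protein induced by TNF, had 162, 59.7 and 102 CPM in combination tumours, against 8.59, 0 and 22.4 CPM in control tumours (log2 fold change 3.10 ± 0.56, adjusted p = 0.000235). Tnfaip2 rose by 1.60 ± 0.30, Birc3, an inhibitor of apoptosis, by 2.08 ± 0.43, and Il1rn, the antagonist of the IL-1 receptor, by 1.74 ± 0.45. No control tumour reached the lowest combination tumour for these genes. Il1b and Nfkbia, the inhibitor that NF-kB induces, did not pass (0.29 ± 0.53 and -0.58 ± 0.25), and Nfkb2, an NF-kB subunit, fell (-2.78 ± 0.81). Whichever library was left out, 7 higher and 1 lower calls among TNF, IL-1 and NF-kB genes held, 5 and 0 with the detected-gene covariate, and 3 and 0 at equal depth. No call was made for Il1rn and Nfkb2 with either covariate (adjusted p 0.0625 to 0.172). The test also gave no call for Nfkb2 by DESeq2's Wald test. Nfkbia passed without control replicate 1 (-0.69, adjusted p = 0.043). Without 1 library the fold change shifted by over 1.5-fold for Tnfaip6, to 4.30 without control replicate 3 (3 control counts left).

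In the toll-like receptor list, 3 of 12 tested members rose and 0 fell. Tollip, an adaptor that restrains TLR and IL-1 signals, had 359, 298 and 265 CPM in combination tumours, against 112, 76.8 and 105 CPM in control tumours (log2 fold change 1.62 ± 0.28, adjusted p = 0.000128), with no overlap. Traf6, the ubiquitin ligase downstream of MyD88, rose by 1.40 ± 0.47. Hmgn1, the gene of the protein from which the peptide is taken, had 973, 1086 and 677 CPM in combination tumours, against 678, 519 and 486 CPM in control tumours (log2 fold change 0.70 ± 0.25, adjusted p = 0.0329), and the groups overlapped. Tlr4 was not tested, with 3, 2 and 0 counts in combination libraries and 5, 6 and 7 in control libraries. Cd14, the co-receptor of TLR4, and Myd88 did not pass (0.73 ± 0.40 and 0.37 ± 0.36). Of the genes named here, the call was lost for Traf6 and Hmgn1 with either covariate (adjusted p 0.0926 to 0.806). Further calls ended for Traf6 without combination replicate 1 or control replicate 1 (adjusted p 0.0597 to 0.116), Hmgn1 without combination replicate 1, combination replicate 2, control replicate 2 or control replicate 3 (adjusted p 0.0696 to 0.126), Traf6 and Hmgn1 with no filter on low counts, Traf6 by DESeq2's Wald test, and Hmgn1 at equal depth.

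Chemokine genes rose in 10 of 20 tested members and fell in 1 (median 1.0). Cxcl1, a ligand of CXCR2 that draws neutrophils, had 1007, 483 and 609 CPM in combination tumours, against 143, 106 and 181 CPM in control tumours (log2 fold change 2.25 ± 0.30, adjusted p = 1.12e-05). Cxcl5, a further CXCR2 ligand, had 162, 47.7 and 102 CPM in combination tumours, against 0, 7.31 and 26.9 CPM in control tumours (log2 fold change 2.94 ± 0.63, adjusted p = 0.00101). Ccl8, a monocyte-attracting chemokine, had 145, 125 and 231 CPM in combination tumours, against 40.1, 29.3 and 94.1 CPM in control tumours (log2 fold change 1.56 ± 0.37, adjusted p = 0.00275). Cxcl1 and Cxcl5 were above the controls in each combination tumour, while Cxcr2 was below them. Ackr3, a scavenging receptor for CXCL12, rose by 1.65 ± 0.26, Ccl4, a chemokine of activated macrophages, by 1.17 ± 0.34, and Ccr1, a receptor of monocytes and neutrophils, by 1.15 ± 0.39. Ccl2, the main ligand of CCR2, and Cxcl2, also a CXCR2 ligand, did not pass (0.38 ± 0.33 and -0.57 ± 0.37). Calls among CC and CXC chemokines and receptors held in all 6 leave-outs for 4 higher and 1 lower genes, 5 and 1 with the detected-gene covariate, and 4 and 1 at equal depth. They came down to 6 higher without combination replicate 1. Calls did not hold for Ccl4 with either covariate (adjusted p 0.34 to 0.433), and for Ccr1 with the detected-gene covariate (adjusted p = 0.177). The threshold was also missed for Ccl4 without combination replicate 2 or control replicate 3 (adjusted p 0.0529 to 0.0552), Ccr1 without combination replicate 1, combination replicate 2 or control replicate 2 (adjusted p 0.0503 to 0.0902), Ccr1 with no filter on low counts, and Ccr1 by DESeq2's Wald test. A shift of over 1.5-fold came from 1 library for Cxcl5, to 4.74 without control replicate 3 (2 control counts left), and Ccl8, to 2.24 without control replicate 3.

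The start-site windows of chemokine genes were read for the NF-kB letters GGGANNTTC, found in 3.94% of all windows on either strand. Of the genes with a window, 1 of 7 that rose held them, Cxcl1, as did Cxcr2, which fell, and 2 of 7 that did not pass. In the TNF list 1 of 9 such genes that rose held them, Tnf, as did Nfkb2, which fell, and 3 of 13 of the rest. The window of Cxcl1 is shown because it was the one higher chemokine gene to hold them. The capitals cover 2 overlapping matches, 1 on each strand, 5′ to 3′ on the gene's strand (RefSeq, GRCm38.p6, chr5:90890995-90891294, plus strand).
Cxcl1: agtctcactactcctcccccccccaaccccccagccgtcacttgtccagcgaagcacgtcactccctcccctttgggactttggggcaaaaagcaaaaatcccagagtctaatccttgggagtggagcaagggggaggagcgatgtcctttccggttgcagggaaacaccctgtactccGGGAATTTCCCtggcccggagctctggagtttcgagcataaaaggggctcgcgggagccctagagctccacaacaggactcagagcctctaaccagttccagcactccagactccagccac

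Lymphocyte genes were mostly too low to test. Of 22 T cell receptor and surface genes, 1 was tested, Thy1, which T cells share with fibroblasts, and it rose (log2 fold change 1.65 ± 0.37, adjusted p = 0.00174). Of 29 checkpoint and costimulation genes 2 were tested. Ctla4, an inhibitory receptor of activated and regulatory T cells, had 162, 101 and 164 CPM in combination tumours, against 2.86, 7.31 and 29.1 CPM in control tumours (log2 fold change 3.24 ± 0.53, adjusted p = 7.5e-05). Tnfrsf9, the costimulatory receptor 4-1BB, had 93.9, 65.6 and 79 CPM in combination tumours, against 14.3, 18.3 and 29.1 CPM in control tumours (log2 fold change 1.87 ± 0.44, adjusted p = 0.00215). All 3 combination tumours exceeded the controls for each. Cd8a had 1, 0 and 0 counts in combination libraries and 1, 0 and 3 in control libraries, Gzmb had 0, 0 and 1 in combination and 1, 2 and 3 in control libraries, and Pdcd1, the gene of PD-1, had none in any of the 6. Cd274, the gene of PD-L1, had 4, 2 and 3 counts in combination and 0, 1 and 7 in control libraries and was not tested. Of the granzyme, perforin and NK cell genes 2 of 22 were tested, Gzma and Gzmc, and neither passed (0.34 ± 0.47 and -0.41 ± 0.67). Among B cell genes Pigr, the receptor that carries IgA across epithelia, rose by 3.81 ± 0.70, and Pax5, the B lineage factor, by 2.30 ± 0.72. The other listed B cell genes stayed untested except Sdc1 (0.62 ± 0.33). The 13 untested ones had 29 counts in all in the combination and 77 in control, or 62.8 and 72 CPM over each group. The 2 B cell markers in the tables had 2 counts in the combination and 2 in control, and neither was tested. No call remained for Thy1 and Pax5 with either covariate (adjusted p 0.127 to 0.423). Calls were also lost for Pax5 without combination replicate 2 or control replicate 3 (adjusted p 0.0504 to 0.0682). Left-out libraries moved the fold change by over 1.5-fold for Ctla4, to 4.72 without control replicate 3 (3 control counts left).

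Dendritic cell genes rose in 4 of 8 tested members. Siglech, a receptor of plasmacytoid dendritic cells, had 68.3, 59.7 and 67.7 CPM in combination tumours, against 2.86, 14.6 and 20.2 CPM in control tumours (log2 fold change 2.29 ± 0.67, adjusted p = 0.0112). Marcksl1, an actin-binding protein, had 282, 143 and 141 CPM in combination tumours, against 28.6, 32.9 and 31.4 CPM in control tumours (log2 fold change 2.55 ± 0.37, adjusted p = 1.99e-05). Fscn1, fascin of mature dendritic cells, rose by 0.92 ± 0.34. Siglech and Marcksl1 did not overlap between groups. The 4 dendritic cell markers in the tables (Zbtb46, Flt3, Xcr1 and Cd209a) summed to 17.1 to 28.2 CPM in combination and 20.0 to 33.6 CPM in control tumours, a few counts per library. Il12b had 1 and 3 counts. Siglech and Fscn1 lost the call with either covariate (adjusted p 0.242 to 0.413). The Fscn1 call also ended without combination replicate 1 or 3 or control replicate 2 or 3 (adjusted p 0.0697 to 0.136). It ended too at equal depth, with no filter on low counts, with the 6 samples alone and by DESeq2's Wald test. The Siglech change moved by over 1.5-fold, to 2.92 without control replicate 3.

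Several proteases of the matrix rose, while 1 protease and 1 inhibitor fell. Of the metalloproteinase list, 6 of 14 tested members rose and 2 fell (median 0.52). Mmp3, stromelysin-1, had 222, 101 and 67.7 CPM in combination tumours, against 25.8, 25.6 and 26.9 CPM in control tumours (log2 fold change 2.23 ± 0.42, adjusted p = 0.000321). Mmp13, a collagenase, had 59.8, 35.8 and 95.9 CPM in combination tumours, against 5.72, 18.3 and 22.4 CPM in control tumours (log2 fold change 2.00 ± 0.52, adjusted p = 0.00494). Timp2, an inhibitor that also helps activate MMP2, had 34.1, 41.8 and 73.3 CPM in combination tumours, against 177, 303 and 343 CPM in control tumours (log2 fold change -2.41 ± 0.43, adjusted p = 0.000194). Mmp3 and Mmp13 lay above, and Timp2 below, the controls in every combination tumour. Mmp19 rose by 1.91 ± 0.55, Adam17, the sheddase that frees TNF, fell (-1.74 ± 0.50), and Mmp14, a membrane-bound collagenase, did not pass (-0.25 ± 0.31). For matrix metalloproteinases and inhibitors, 3 higher and 1 lower calls remained in each of 6 leave-outs, 5 and 1 with either covariate, and 2 and 1 at equal depth. There was no call for Adam17 with either covariate (adjusted p 0.177 to 0.217). The test also gave no call for Mmp13 without combination replicate 3 (adjusted p = 0.0703), Mmp19 without combination replicate 1 (adjusted p = 0.0553), Adam17 without combination replicate 1 (adjusted p = 0.0529), and Adam17 with limma voom.

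Collagen and fibroblast genes did not move one way, with 4 of 24 higher, 6 lower and a median of -0.06. Fbn1, fibrillin-1 of elastic microfibrils, had 461, 233 and 95.9 CPM in combination tumours, against 40.1, 32.9 and 35.8 CPM in control tumours (log2 fold change 2.78 ± 0.46, adjusted p = 9.2e-05). Sparc, a collagen-binding matricellular protein, had 76.8, 71.6 and 124 CPM in combination tumours, against 389, 475 and 468 CPM in control tumours (log2 fold change -2.26 ± 0.36, adjusted p = 6.31e-05). Serpinh1, the collagen chaperone HSP47, had 42.7, 35.8 and 28.2 CPM in combination tumours, against 163, 278 and 129.9 CPM in control tumours (log2 fold change -2.41 ± 0.38, adjusted p = 5.44e-05). Fbn1 was above the controls in each combination tumour, and Sparc and Serpinh1 were below them. Col1a2 and the receptor Pdgfra fell (-0.81 ± 0.21 and -2.05 ± 0.57), while Col1a1 did not pass (0.53 ± 0.30). Among collagen, matrix and fibroblast genes, 2 higher and 6 lower calls held whichever library was left out, 1 and 4 with the detected-gene covariate, and 2 and 5 at equal depth. By library left out, those remaining were 2 higher without control replicate 1 and 2 without control replicate 3. The call ended for Col1a2 and Pdgfra with either covariate (adjusted p 0.0737 to 0.367). Further calls ended for Pdgfra with limma voom. Col1a1 passed without control replicate 3 (0.91, adjusted p = 0.0383).

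Genes of coagulation and fibrinolysis changed in both directions (4 of 13 higher, 2 lower). Plaur, the receptor of urokinase, had 623, 364 and 525 CPM in combination tumours, against 155, 109.7 and 125 CPM in control tumours (log2 fold change 1.94 ± 0.28, adjusted p = 1.99e-05). Serpinb2, an inhibitor of urokinase, rose by 2.56 ± 0.66. Plau, urokinase itself, fell (-1.74 ± 0.54), and F2r, the thrombin receptor (-1.69 ± 0.49). Plaur was higher in all 3 combination tumours. The call was lost for Serpinb2 and F2r with either covariate (adjusted p 0.0797 to 0.149), and for Plau with the Bc1 and Lrrc17 covariate (adjusted p = 0.077). The threshold was also missed for Serpinb2 without combination replicate 1 (adjusted p = 0.0707), Plau without combination replicate 1, combination replicate 3 or control replicate 1 (adjusted p 0.0533 to 0.077), F2r without combination replicate 1 (adjusted p = 0.062), Plau by DESeq2's Wald test, and Plau with limma voom. The fold change moved by over 1.5-fold for F2r, to -2.29 without combination replicate 3.

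Some genes of lipid uptake rose, and genes of cholesterol synthesis fell or did not pass. Of the genes for uptake, transport and storage, 6 of 21 tested members rose and 4 fell (median 0.33), and of the genes for cholesterol synthesis, 0 of 18 rose and 8 fell (median -1.10). Besides Apoe, Fabp5 and Cd36, Soat1, which esterifies cholesterol, rose by 1.52 ± 0.41, Abca1, the cholesterol exporter, by 1.57 ± 0.47, and Lpl, lipoprotein lipase, by 2.04 ± 0.54. Dbi, the acyl-CoA-binding protein, fell, with 8.54, 0 and 22.6 CPM in combination tumours, against 189, 194 and 98.5 CPM in control tumours (log2 fold change -3.82 ± 0.63, adjusted p = 8.13e-05). Hmgcs1, which makes HMG-CoA for the pathway, had 17.1, 11.9 and 5.64 CPM in combination tumours, against 169, 154 and 91.8 CPM in control tumours (log2 fold change -3.59 ± 0.53, adjusted p = 2.46e-05). Fdps, farnesyl diphosphate synthase, had 2 combination counts against 101 in control (21.8-fold lower, 95% exact interval 5.88 to 183). Fdft1, squalene synthase, had 3 against 100 (14.4-fold lower, 95% exact interval 4.79 to 71). No combination tumour reached the lowest control for these 4 genes. Idi1, the isopentenyl isomerase, fell (-2.01 ± 0.66), Sqle, squalene epoxidase (-1.40 ± 0.37), and Insig1, which retains the sterol sensor in the endoplasmic reticulum (-1.46 ± 0.41). In the list of cholesterol synthesis genes, 5 lower calls held with any library left out, 3 with the detected-gene covariate, and 3 at equal depth. No call was made for Soat1, Lpl and Insig1 with either covariate (adjusted p 0.102 to 0.511), and for Idi1 and Sqle with the detected-gene covariate (adjusted p 0.0517 to 0.096). Calls were also lost for Abca1 without combination replicate 3 (adjusted p = 0.094), Idi1 without combination replicate 3 or control replicate 1 (adjusted p 0.101 to 0.117), Soat1, Lpl, Sqle and Insig1 at equal depth, and Idi1 with limma voom. A single library moved the fold change by over 1.5-fold for Dbi, to -3.14 without combination replicate 2 and to -5.30 without combination replicate 3 (1 combination count left), and Idi1, to -1.33 without combination replicate 3.

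The start-site window of Hmgcs1 held the sterol regulatory element letters TCACNCCAC, which SREBP proteins bind and which stood in 1.24% of all windows on either strand, and it was the only one of the 5 lower cholesterol genes with a window to hold them. None of the 7 genes with a window that did not pass held them, against 1.44% of all genes with a window. The window is shown with the match in capitals, 5′ to 3′ on the gene's strand (RefSeq, GRCm38.p6, chr13:119690101-119690400, plus strand).
Hmgcs1: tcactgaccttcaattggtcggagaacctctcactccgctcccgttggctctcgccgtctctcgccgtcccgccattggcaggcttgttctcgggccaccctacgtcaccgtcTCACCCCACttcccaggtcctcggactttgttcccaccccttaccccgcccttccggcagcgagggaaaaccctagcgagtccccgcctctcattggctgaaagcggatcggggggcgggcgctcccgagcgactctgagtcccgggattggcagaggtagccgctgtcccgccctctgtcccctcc

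Genes that handle metals and haem rose in part. Of the metallothionein and iron genes, 6 of 12 tested members rose and 1 fell (median 0.81). Mt1, a small metal-binding protein induced by zinc, glucocorticoid and inflammation, had 12659.7, 9859 and 12859 CPM in combination tumours, against 2269.6, 2146 and 3930.1 CPM in control tumours (log2 fold change 2.08 ± 0.26, adjusted p = 4.03e-06). Slc39a14, a zinc and iron importer, had 691, 704 and 491 CPM in combination tumours, against 269, 139 and 141 CPM in control tumours (log2 fold change 1.77 ± 0.27, adjusted p = 4.43e-05). Hmox1, which breaks down haem, had 316, 239 and 367 CPM in combination tumours, against 45.8, 65.8 and 58.2 CPM in control tumours (log2 fold change 2.44 ± 0.33, adjusted p = 1.08e-05). The 3 genes were higher in each combination tumour than in any control tumour. Mtf1, the zinc-sensing factor that drives metallothioneins, rose by 1.91 ± 0.39, and Tfrc, the transferrin receptor, by 1.43 ± 0.29. Mt2, the neighbour of Mt1, had 1024, 740.0 and 1828 CPM in combination tumours, against 492, 709 and 1747 CPM in control tumours and did not pass (0.28 ± 0.42, adjusted p = 0.63), with its highest levels in replicate 3 of both groups. Fth1, the ferritin heavy chain, fell (-3.04 ± 0.80). Of the genes named here, the call was lost for Fth1 with either covariate (adjusted p 0.241 to 0.433). Other lost calls were those for Fth1 at equal depth, and Fth1 with limma voom. Mt2 passed with the Bc1 and Lrrc17 covariate (1.55, adjusted p = 0.0051). Without 1 library the fold change shifted by over 1.5-fold for Fth1, to -2.32 without control replicate 2.

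The windows of Mt1 and Mt2 are shown because the 2 neighbours differ in their calls and both hold metal response elements, which MTF1 binds, searched as TGCACNC or TGCGCNC on both strands and present in 25.7% of all windows. Mt1 held 3 matches and Mt2 held 4, in capitals, 5′ to 3′ on the gene's strand (RefSeq, GRCm38.p6: Mt1 at chr8:94178839-94179138, plus strand; Mt2 at chr8:94172368-94172667, plus strand).
Mt1: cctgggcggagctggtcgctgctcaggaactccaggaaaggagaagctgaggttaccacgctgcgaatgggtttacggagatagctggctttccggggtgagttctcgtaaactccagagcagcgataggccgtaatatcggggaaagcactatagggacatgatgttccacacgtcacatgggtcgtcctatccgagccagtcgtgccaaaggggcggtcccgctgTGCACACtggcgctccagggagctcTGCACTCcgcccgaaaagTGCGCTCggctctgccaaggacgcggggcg
Mt2: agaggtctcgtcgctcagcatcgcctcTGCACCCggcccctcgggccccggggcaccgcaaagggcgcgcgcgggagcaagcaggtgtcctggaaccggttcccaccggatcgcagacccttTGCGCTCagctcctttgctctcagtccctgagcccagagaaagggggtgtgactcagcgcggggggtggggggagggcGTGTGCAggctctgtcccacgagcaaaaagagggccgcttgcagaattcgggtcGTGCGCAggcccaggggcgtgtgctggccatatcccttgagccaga

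Among phagocyte oxidase and antioxidant genes, 6 of 19 rose and 7 fell (median -0.41). Cybb, the catalytic subunit of the phagocyte oxidase, had 572, 364 and 440.1 CPM in combination tumours, against 88.7, 132 and 121 CPM in control tumours (log2 fold change 2.00 ± 0.26, adjusted p = 7.71e-06). Nfe2l2, the factor NRF2 that induces antioxidant enzymes, had 589, 674 and 401 CPM in combination tumours, against 212, 161 and 226 CPM in control tumours (log2 fold change 1.46 ± 0.26, adjusted p = 0.000178). Rac2, a GTPase that assembles the oxidase, rose by 1.92 ± 0.41. By contrast Prdx2, a peroxiredoxin, had 145, 95.5 and 197 CPM in combination tumours, against 581, 399 and 434 CPM in control tumours (log2 fold change -1.68 ± 0.28, adjusted p = 8.14e-05). Sod1, the cytosolic superoxide dismutase, fell (-2.02 ± 0.37), Gpx1, a glutathione peroxidase (-1.92 ± 0.35), Prdx5 (-2.01 ± 0.45) and thioredoxin Txn1 (-1.84 ± 0.33). The groups did not overlap for Cybb or Nfe2l2, which were higher, nor for Prdx2, which was lower. Of the calls among phagocyte oxidase and antioxidant genes, 5 higher and 5 lower ones held in all 6 leave-outs, 5 and 4 with either covariate, and 3 and 5 at equal depth. Calls did not hold for Prdx5 with either covariate (adjusted p 0.0589 to 0.0973). The test also gave no call for Rac2 at equal depth. A shift of over 1.5-fold came from 1 library for Sod1, to -2.86 without combination replicate 3, Prdx5, to -3.07 without combination replicate 3, and Txn1, to -2.54 without combination replicate 3.

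Arginine and polyamine genes rose in 5 of 14 tested members and fell in 1. Azin1, an inhibitor of antizyme, had 376, 406 and 457 CPM in combination tumours, against 229, 176 and 195 CPM in control tumours (log2 fold change 1.05 ± 0.23, adjusted p = 0.00138). Slc7a2, an arginine transporter of activated macrophages, rose by 1.40 ± 0.41, and Odc1, which makes putrescine, by 0.69 ± 0.25. Azin1 did not overlap between the groups, and both arginases were higher in the combination. Slc3a2, the heavy chain of amino acid transporters, fell (-1.71 ± 0.53). No call remained for Slc7a2, Odc1 and Slc3a2 with either covariate (adjusted p 0.0926 to 0.528). Further calls ended for Slc7a2 without control replicate 3 (adjusted p = 0.0507), Odc1 without combination replicate 2, control replicate 2 or control replicate 3 (adjusted p 0.108 to 0.179), Slc3a2 without combination replicate 1 or combination replicate 2 (adjusted p 0.0732 to 0.0904), Slc7a2 and Odc1 at equal depth, Odc1 with no filter on low counts, and Slc3a2 by DESeq2's Wald test. Left-out libraries moved the fold change by over 1.5-fold for Slc3a2, to -2.38 without combination replicate 3 (3 combination counts left).

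Several glycolytic enzymes fell, and the main glucose transporter rose. Of 19 tested members, 2 rose and 9 fell (median -0.51). Slc2a1, the glucose transporter GLUT1, had 333, 269 and 333 CPM in combination tumours, against 54.4, 32.9 and 101 CPM in control tumours (log2 fold change 2.24 ± 0.31, adjusted p = 1.48e-05). Aldoa, aldolase, had 25.6, 29.8 and 39.5 CPM in combination tumours, against 166, 194 and 282 CPM in control tumours (log2 fold change -2.72 ± 0.44, adjusted p = 7.37e-05). Ldha, which makes lactate, had 137, 113 and 192 CPM in combination tumours, against 584, 512 and 793 CPM in control tumours (log2 fold change -2.09 ± 0.36, adjusted p = 0.000137). The transporter lay above and both enzymes below the controls in every combination tumour. Pkm, pyruvate kinase, fell (-1.75 ± 0.32), Tpi1 (-1.56 ± 0.30), Pgk1 (-1.14 ± 0.26) and Gapdh (-1.48 ± 0.34), and the lactate exporter Slc16a3 rose by 1.14 ± 0.30. Hypoxia-induced genes outside glycolysis rose in 7 of 21 and fell in 2 (median 0.63). Bhlhe40, a transcriptional repressor, had 2373, 1844 and 1986 CPM in combination tumours, against 807, 409.5 and 522 CPM in control tumours (log2 fold change 1.83 ± 0.25, adjusted p = 1.17e-05). Mif, macrophage migration inhibitory factor, rose by 1.17 ± 0.22 and Bnip3, which directs mitochondria to autophagy, by 1.27 ± 0.30, while Vegfa, the vascular growth factor, fell (-1.73 ± 0.54). The letters ACGTG, the core bound by HIF, stood in the windows of 6 of 9 lower and 2 of 2 higher glycolysis genes. They stood in 3 of 8 of the rest, against 21.8% of all genes with a window. Whichever library was left out, 2 higher and 7 lower calls among glycolysis genes held, 1 and 6 with the detected-gene covariate, and 1 and 7 at equal depth. Calls went missing for Gapdh, Slc16a3 and Vegfa with either covariate (adjusted p 0.054 to 0.301), and for Pgk1 with the Bc1 and Lrrc17 covariate (adjusted p = 0.0977), and for Bnip3 with the detected-gene covariate (adjusted p = 0.0729). The threshold was also missed for Vegfa without combination replicate 1, combination replicate 2 or control replicate 3 (adjusted p 0.0555 to 0.117), Slc16a3 and Vegfa at equal depth, and Vegfa with limma voom. With 1 library left out, the fold change shifted by over 1.5-fold for Vegfa, to -2.37 without combination replicate 3.

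Genes of the respiratory chain fell more often than they rose. Of 70 tested nuclear-encoded members, 6 rose and 28 fell (median -0.70). Atp5a1, the alpha subunit of ATP synthase, had 2339, 2471 and 1856 CPM in combination tumours, against 736, 574 and 506 CPM in control tumours (log2 fold change 1.88 ± 0.28, adjusted p = 2.46e-05). Atp5h, a stalk subunit of the same enzyme, had 25.6, 5.97 and 11.3 CPM in combination tumours, against 172, 190.1 and 233 CPM in control tumours (log2 fold change -3.88 ± 0.50, adjusted p = 6.85e-06). Cox6b1, a subunit of cytochrome oxidase, had 85.4, 95.5 and 45.1 CPM in combination tumours, against 341, 303 and 282 CPM in control tumours (log2 fold change -2.05 ± 0.29, adjusted p = 1.99e-05). Subunits of ATP synthase thus lay on both sides, Atp5a1 above and Atp5h below the controls in every combination tumour. Atp5b, the beta subunit, rose by 0.78 ± 0.23, and Uqcrh of complex III and Cox6c fell (-1.85 ± 0.27 and -3.30 ± 0.57). Mean control levels had a median of 475 CPM in the 6 higher members and 169 CPM in the 28 lower members. Tricarboxylic acid cycle genes rose in 3 of 28 and fell in 7, with Acly, which exports citrate carbon to lipid, at 1.24 ± 0.27 and Mdh1, malate dehydrogenase, at -1.91 ± 0.48. Calls among nuclear-encoded respiratory chain genes held in all 6 leave-outs for 2 higher and 19 lower genes, 1 and 20 with the detected-gene covariate, and 4 and 19 at equal depth. Remaining calls dropped to 3 higher without combination replicate 2, 2 without control replicate 2 and 2 without control replicate 3. For tricarboxylic acid cycle and pyruvate genes, 2 higher and 3 lower calls remained in each of 6 leave-outs, 0 and 2 with either covariate, and 2 and 3 at equal depth. The remaining calls numbered 3 lower without combination replicate 1, 3 without combination replicate 2, 4 without control replicate 1 and 3 without control replicate 2. There was no call for Atp5b, Acly and Mdh1 with either covariate (adjusted p 0.0562 to 0.215). Calls were also lost for Atp5b with no filter on low counts. The fold change moved by over 1.5-fold for Cox6c, to -3.98 without combination replicate 1 and to -2.60 without combination replicate 2.

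Transcripts of the mitochondrial genome fell in 10 of 13 tested members, and 1 rose (median -1.35). MT-Co3, a core subunit of cytochrome oxidase, was the one that rose, with 8921, 9322 and 4068 CPM in combination tumours, against 2247, 1605 and 1552 CPM in control tumours (log2 fold change 2.04 ± 0.37, adjusted p = 0.000251). MT-Atp6, an ATP synthase subunit, had 51.2, 53.7 and 56.4 CPM in combination tumours, against 315, 369 and 376 CPM in control tumours (log2 fold change -2.70 ± 0.34, adjusted p = 4.34e-06). MT-Nd1, a complex I subunit, had 8.54, 35.8 and 28.2 CPM in combination tumours, against 269, 373 and 314 CPM in control tumours (log2 fold change -3.60 ± 0.45, adjusted p = 4.98e-06). MT-Co3 was above, and the other two were below, the controls in each combination tumour. MT-Co2 fell (-1.47 ± 0.25) and the ribosomal RNAs MT-Rnr1 and MT-Rnr2 (-1.71 ± 0.25 and -0.80 ± 0.24). These RNAs are cut from shared precursors, and their share of all counts was 1.36%, 1.42% and 0.902% in combination libraries and 1.14%, 1.43% and 1.57% in control libraries. Among mitochondrial genome transcripts, 1 higher and 6 lower calls held whichever library was left out, 0 and 7 with the detected-gene covariate, and 1 and 8 at equal depth. They came down to 6 lower without combination replicate 3. The call ended for MT-Co3 and MT-Rnr2 with the detected-gene covariate (adjusted p 0.0576 to 0.114). Other lost calls were those for MT-Rnr2 without combination replicate 3 or control replicate 3 (adjusted p 0.0686 to 0.0766).

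**Figure D3:**
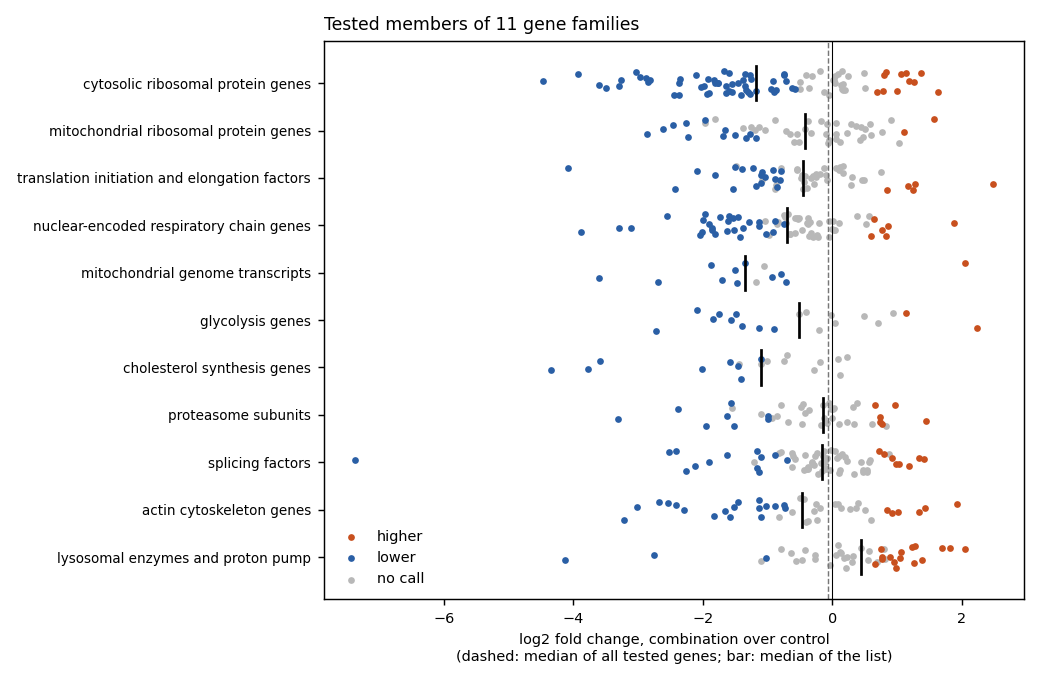
Log2 fold change of each tested member of 11 gene families, with higher, lower and uncalled members in separate colours and the family median as a bar. The cytosolic ribosomal median lies at -1.18 with members on both sides, and the lysosomal median at 0.44.

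Of all the lists, that of cytosolic ribosomal proteins held the most lower genes. Of 85 tested cytosolic members, 52 fell and 11 rose (median -1.18). Rpl5, which binds 5S rRNA, had 51.2, 35.8 and 67.7 CPM in combination tumours, against 982, 1192 and 1283 CPM in control tumours (log2 fold change -4.46 ± 0.50, adjusted p = 1.32e-06). Rpl23a had 76.8, 125 and 84.6 CPM in combination tumours, against 776, 979.9 and 1093 CPM in control tumours (log2 fold change -3.29 ± 0.34, adjusted p = 9.03e-07). Rplp0, the base of the ribosomal stalk, had 14811, 12711 and 8548 CPM in combination tumours, against 5409, 3141 and 3110.5 CPM in control tumours (log2 fold change 1.63 ± 0.30, adjusted p = 0.000268), and Rpl32 had 13932, 16704 and 10991 CPM in combination tumours, against 6448, 4695 and 4936 CPM in control tumours (log2 fold change 1.37 ± 0.26, adjusted p = 0.00036). Every combination tumour was below the controls for Rpl5 and Rpl23a and above them for Rplp0 and Rpl32. Rps28, Rpl35 and Rpl7a fell (-3.03 ± 0.29, -2.97 ± 0.32 and -3.49 ± 0.39), and Rplp1 and Rps27a rose by 0.80 ± 0.30 and 1.0 ± 0.24. The summed level of the list was 191340.0 ± 34760.0 CPM in combination and 193770.0 ± 17500.0 CPM in control tumours. The mean control level had a median of 3887 CPM in the 11 higher members and 1134 CPM in the 52 lower members. Ribosomal protein genes have many processed copies, and reads shared with them are uncertain. In the list of cytosolic ribosomal protein genes, 8 higher and 45 lower calls held with any library left out, 0 and 46 with the detected-gene covariate, and 11 and 49 at equal depth. The call was lost for Rplp1 and Rps27a with either covariate (adjusted p 0.0797 to 0.906), and for Rplp0 and Rpl32 with the detected-gene covariate (adjusted p 0.0621 to 0.0622). The test also gave no call for Rplp1 without combination replicate 1, combination replicate 2, control replicate 2 or control replicate 3 (adjusted p 0.0929 to 0.156), and Rplp1 with the 6 samples alone.

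Translation factors and synthetases showed more lower than higher calls. Mitochondrial ribosomal proteins fell in 12 of 51 and rose in 2, initiation and elongation factors fell in 18 of 55 and rose in 5, and tRNA synthetases fell in 8 of 21 and rose in 1. Eef1a1, the factor that brings tRNA to the ribosome, had 1289, 1689 and 1365 CPM in combination tumours, against 3019, 4322 and 4120.4 CPM in control tumours (log2 fold change -1.40 ± 0.25, adjusted p = 0.000202). Eef1g, a subunit of its exchange factor, had 59.8, 83.5 and 50.8 CPM in combination tumours, against 341, 369 and 345 CPM in control tumours (log2 fold change -2.43 ± 0.33, adjusted p = 1.17e-05). Eef2, which drives translocation, had 4328, 4327 and 3013 CPM in combination tumours, against 1586, 1942 and 1659 CPM in control tumours (log2 fold change 1.17 ± 0.25, adjusted p = 0.00121). Eef1a1 and Eef1g were below, and Eef2 above, the controls in each combination tumour. Eif4e3, a cap-binding protein, rose by 2.48 ± 0.50, Tpt1, a growth-related protein tied to translation, fell (-0.89 ± 0.24), Sars, the serine synthetase (-1.65 ± 0.34), and Mrpl33 (-2.22 ± 0.38). Of the calls among mitochondrial ribosomal protein genes, 0 higher and 6 lower ones held in all 6 leave-outs, 0 and 9 with the detected-gene covariate, and 0 and 1 at equal depth. By library left out, those remaining were 7 lower without combination replicate 1. Whichever library was left out, 4 higher and 9 lower calls among translation initiation and elongation factors held, 2 and 5 with the detected-gene covariate, and 4 and 10 at equal depth. Remaining calls dropped to 11 lower without combination replicate 2. Calls among aminoacyl-tRNA synthetases held in all 6 leave-outs for 1 higher and 4 lower genes, 0 and 3 with the detected-gene covariate, and 0 and 1 at equal depth. The remaining calls numbered 5 lower without combination replicate 2. No call was made for Eef2 with either covariate (adjusted p 0.0914 to 0.107), and for Tpt1 with the detected-gene covariate (adjusted p = 0.0637). Further calls ended for Tpt1 without combination replicate 1 (adjusted p = 0.0581), and Sars at equal depth.

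Cell cycle genes fell in 17 of 62 tested members and rose in 4 (median -0.52). Mki67, the proliferation antigen, had 8.54, 11.9 and 22.6 CPM in combination tumours, against 94.4, 117 and 134 CPM in control tumours (log2 fold change -2.90 ± 0.45, adjusted p = 4.19e-05). Ccnd1, cyclin D1, had 248, 310.3 and 299 CPM in combination tumours, against 890.1, 1397 and 1467 CPM in control tumours (log2 fold change -2.12 ± 0.25, adjusted p = 2.64e-06). Top2a, which untangles replicated DNA, had 196, 275 and 181 CPM in combination tumours, against 375, 680.1 and 643 CPM in control tumours (log2 fold change -1.37 ± 0.28, adjusted p = 0.000648). The groups did not overlap for any of the 3. Cdk4, the partner of cyclin D1, fell (-2.11 ± 0.45), while Cks2, a small subunit of cyclin-dependent kinases, rose by 1.55 ± 0.31. Mcm5 and Ccna2, a helicase subunit and a cyclin, did not pass (0.72 ± 0.29 and -0.34 ± 0.28). The cell cycle homology letters TTTGAA, bound by the MuvB complexes, stood in 20.2% of all genes with a window. Of the members with a window, 5 of 14 lower, 2 of 4 higher and 10 of 31 others held them. Among HMG and chromatin genes 9 of 21 fell, including Hmgb2 (-1.30 ± 0.24), nucleophosmin Npm1 (-1.46 ± 0.22) and nucleolin Ncl (-1.28 ± 0.25), and 3 rose, including Hmgn1. Hmgb1, the best known alarmin of the family, did not pass (0.07 ± 0.24, adjusted p = 0.853). For cell cycle and DNA replication genes, 2 higher and 9 lower calls remained in each of 6 leave-outs, 0 and 10 with the detected-gene covariate, and 3 and 8 at equal depth. They came down to 11 lower without combination replicate 1 and 10 without combination replicate 2. Among HMG and linker chromatin genes, 1 higher and 5 lower calls held whichever library was left out, 0 and 5 with either covariate, and 1 and 4 at equal depth. By library left out, those remaining were 5 lower without combination replicate 1, 5 without combination replicate 2, 5 without control replicate 2 and 5 without control replicate 3. Of the genes named here, the call was lost for Cks2 with either covariate (adjusted p 0.0645 to 0.083). Mcm5 passed with at least 20 counts in 3 libraries (0.78, adjusted p = 0.0328), with limma voom (0.80, adjusted p = 0.0339), and without control replicate 1 (1.16, adjusted p = 0.00433).

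Protein folding and degradation genes went both ways. Heat shock genes fell in 11 of 35 and rose in 4, proteasome genes fell in 8 of 41 and rose in 6, and genes of the endoplasmic reticulum fell in 7 of 27 and rose in 8. The proteasome shares were near those of all tested genes, 18.3% lower and 16.5% higher. Hsp90ab1, a cytosolic chaperone, had 2629, 3246 and 2641 CPM in combination tumours, against 5252, 5635 and 5939 CPM in control tumours (log2 fold change -0.98 ± 0.21, adjusted p = 0.00114). Hspa1b, the inducible HSP70, had 25.6, 65.6 and 67.7 CPM in combination tumours, against 252, 256 and 329 CPM in control tumours (log2 fold change -2.33 ± 0.48, adjusted p = 0.000776). Psma5, a core proteasome subunit, had 17.1, 0 and 16.9 CPM in combination tumours, against 109, 109.7 and 116 CPM in control tumours (log2 fold change -3.31 ± 0.60, adjusted p = 0.000231). All 3 were lower in each combination tumour. Hspb8 rose by 1.72 ± 0.31 and Pomp, the proteasome assembly factor, by 0.98 ± 0.26. Ssr3 and Ssr2, subunits of one translocon complex, went opposite ways, at 1.18 ± 0.23 and -2.54 ± 0.53. In the coatomer list Copa rose by 0.97 ± 0.32 while Copb1 fell (11.9-fold lower, 95% exact interval 3.14 to 100.5). Ubb, a ubiquitin gene, rose by 1.63 ± 0.25. In the list of cytosolic and mitochondrial heat shock proteins, 2 higher and 6 lower calls held with any library left out, 1 and 5 with the detected-gene covariate, and 3 and 6 at equal depth. Remaining calls dropped to 7 lower without combination replicate 1, 6 without combination replicate 2 and 7 without control replicate 1. Of the calls among proteasome subunits, 1 higher and 4 lower ones held in all 6 leave-outs, 0 and 4 with the detected-gene covariate, and 6 and 2 at equal depth. The remaining calls numbered 2 higher without combination replicate 1, 1 without combination replicate 2, 3 without control replicate 2 and 2 without control replicate 3, and 5 lower without combination replicate 1 and 5 without combination replicate 2. Whichever library was left out, 4 higher and 4 lower calls among endoplasmic reticulum chaperones and stress genes held, 3 and 4 with the detected-gene covariate, and 6 and 3 at equal depth. They came down to 5 higher without control replicate 2 and 4 without control replicate 3, and 4 lower without combination replicate 2. Calls did not hold for Pomp, Copa and Copb1 with either covariate (adjusted p 0.0611 to 0.381), and for Hspa1b with the Bc1 and Lrrc17 covariate (adjusted p = 0.1). The threshold was also missed for Copa without combination replicate 3, control replicate 2 or control replicate 3 (adjusted p 0.051 to 0.0725), Copa at equal depth, Copa with no filter on low counts, and Copa by DESeq2's Wald test. A single library moved the fold change by over 1.5-fold for Psma5, to -2.62 without combination replicate 2, and Ssr2, to -3.37 without combination replicate 3 (2 combination counts left).

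Genes of the actin cytoskeleton fell in 18 of 42 tested members and rose in 6 (median -0.47). Tmsb4x, thymosin beta 4, which holds actin monomers, had 111, 95.5 and 147 CPM in combination tumours, against 967, 998 and 916 CPM in control tumours (log2 fold change -3.01 ± 0.40, adjusted p = 8.17e-06). Cfl1, cofilin, which severs filaments, had 25.6, 23.9 and 22.6 CPM in combination tumours, against 238, 179 and 253 CPM in control tumours (log2 fold change -3.21 ± 0.51, adjusted p = 5.38e-05). Vim, the intermediate filament vimentin listed with them, had 359, 471 and 722 CPM in combination tumours, against 2184, 2384 and 3079 CPM in control tumours (log2 fold change -2.29 ± 0.33, adjusted p = 2.13e-05). Each was lower in all 3 combination tumours. Gsn, gelsolin, rose by 1.43 ± 0.28, Flna, filamin A, by 1.34 ± 0.26, and Tmsb10, a close relative of Tmsb4x, by 1.02 ± 0.24, while Actb fell (-0.88 ± 0.22). Among calcium-binding genes, 6 of 13 S100 and annexin genes fell and 2 rose, and 4 of 9 calmodulin genes and targets fell and 2 rose. S100a6, calcyclin, had 5984, 8349 and 7177 CPM in combination tumours, against 15987, 12063 and 10861 CPM in control tumours (log2 fold change -0.85 ± 0.23, adjusted p = 0.00544), and Anxa5, a phosphatidylserine-binding annexin, had 68.3, 41.8 and 50.8 CPM in combination tumours, against 429, 424 and 497 CPM in control tumours (log2 fold change -3.09 ± 0.39, adjusted p = 5.92e-06). Ppp3r1, the regulatory subunit of calcineurin, rose by 1.88 ± 0.26. Calls among actin cytoskeleton genes held in all 6 leave-outs for 5 higher and 11 lower genes, 1 and 12 with the detected-gene covariate, and 4 and 12 at equal depth. By library left out, those remaining were 11 lower without combination replicate 2. For S100 and annexin genes, 2 higher and 4 lower calls remained in each of 6 leave-outs, 1 and 4 with either covariate, and 2 and 5 at equal depth. Among calmodulin genes and calmodulin targets, 1 higher and 3 lower calls held whichever library was left out, 1 and 2 with either covariate, and 1 and 1 at equal depth. No call remained for Gsn and Tmsb10 with either covariate (adjusted p 0.0799 to 0.165), and for Flna with the detected-gene covariate (adjusted p = 0.0536). Calls were also lost for S100a6 without combination replicate 1 (adjusted p = 0.0514).

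Splicing and early response genes showed no single direction. Splicing factors rose in 8 of 67 and fell in 13 (median -0.16). Srsf2, a serine-arginine splicing factor, had 1221, 1307 and 965 CPM in combination tumours, against 581, 380.3 and 408 CPM in control tumours (log2 fold change 1.35 ± 0.25, adjusted p = 0.000289). Rbm3, a cold-induced RNA-binding protein, had 2843, 3270.3 and 2291 CPM in combination tumours, against 1586, 709 and 858 CPM in control tumours (log2 fold change 1.41 ± 0.27, adjusted p = 0.000373). Nono, a paraspeckle protein, had 42.7, 47.7 and 28.2 CPM in combination tumours, against 192, 168 and 157 CPM in control tumours (log2 fold change -2.12 ± 0.39, adjusted p = 0.000235). Srsf2 and Rbm3 lay above and Nono below the controls in each combination tumour. Of the immediate early genes, which tissue digestion also induces, 7 of 28 rose and 10 fell, with Fos at -1.33 ± 0.28, Egr1 at -1.14 ± 0.25 and Jun at -1.21 ± 0.30 among the lower ones and Klf4 at 0.90 ± 0.26 and Csrnp1 at 1.56 ± 0.30 among the higher ones. Of the arrestin-like genes 4 of 5 rose, including Arrdc3, which marks membrane receptors for degradation (2.26 ± 0.38), and Txnip, the thioredoxin-interacting protein (0.92 ± 0.34). Blood cell transcripts were lower in 2 of 4 tested erythroid genes. Hbb-b1 had 8.54, 0 and 22.6 CPM in combination tumours, against 91.6, 307 and 184 CPM in control tumours (log2 fold change -4.09 ± 0.64, adjusted p = 4.87e-05), while Hba-a1 did not pass (-0.49 ± 0.42), and adult globin genes share much of their sequence. In the list of splicing factors, 5 higher and 8 lower calls held with any library left out, 2 and 5 with the detected-gene covariate, and 6 and 4 at equal depth. Remaining calls dropped to 5 higher without combination replicate 3. Of the calls among immediate early and dissociation genes, 4 higher and 4 lower ones held in all 6 leave-outs, 0 and 5 with the detected-gene covariate, and 5 and 5 at equal depth. The remaining calls numbered 4 higher without control replicate 2 and 4 without control replicate 3, and 6 lower without combination replicate 1 and 6 without combination replicate 2. Calls went missing for Jun and Txnip with either covariate (adjusted p 0.06 to 0.137), and for Egr1 with the Bc1 and Lrrc17 covariate (adjusted p = 0.0839), and for Srsf2, Rbm3, Klf4 and Csrnp1 with the detected-gene covariate (adjusted p 0.0513 to 0.0576). Other lost calls were those for Txnip without combination replicate 1, combination replicate 3 or control replicate 3 (adjusted p 0.0534 to 0.22), Jun, Arrdc3 and Txnip at equal depth, Txnip with no filter on low counts, and Txnip by DESeq2's Wald test. Hba-a1 passed with the Bc1 and Lrrc17 covariate (-1.72, adjusted p = 0.00584). Without 1 library the fold change shifted by over 1.5-fold for Hbb-b1, to -3.41 without combination replicate 2 and to -5.57 without combination replicate 3 (1 combination count left).

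**Figure D4:**
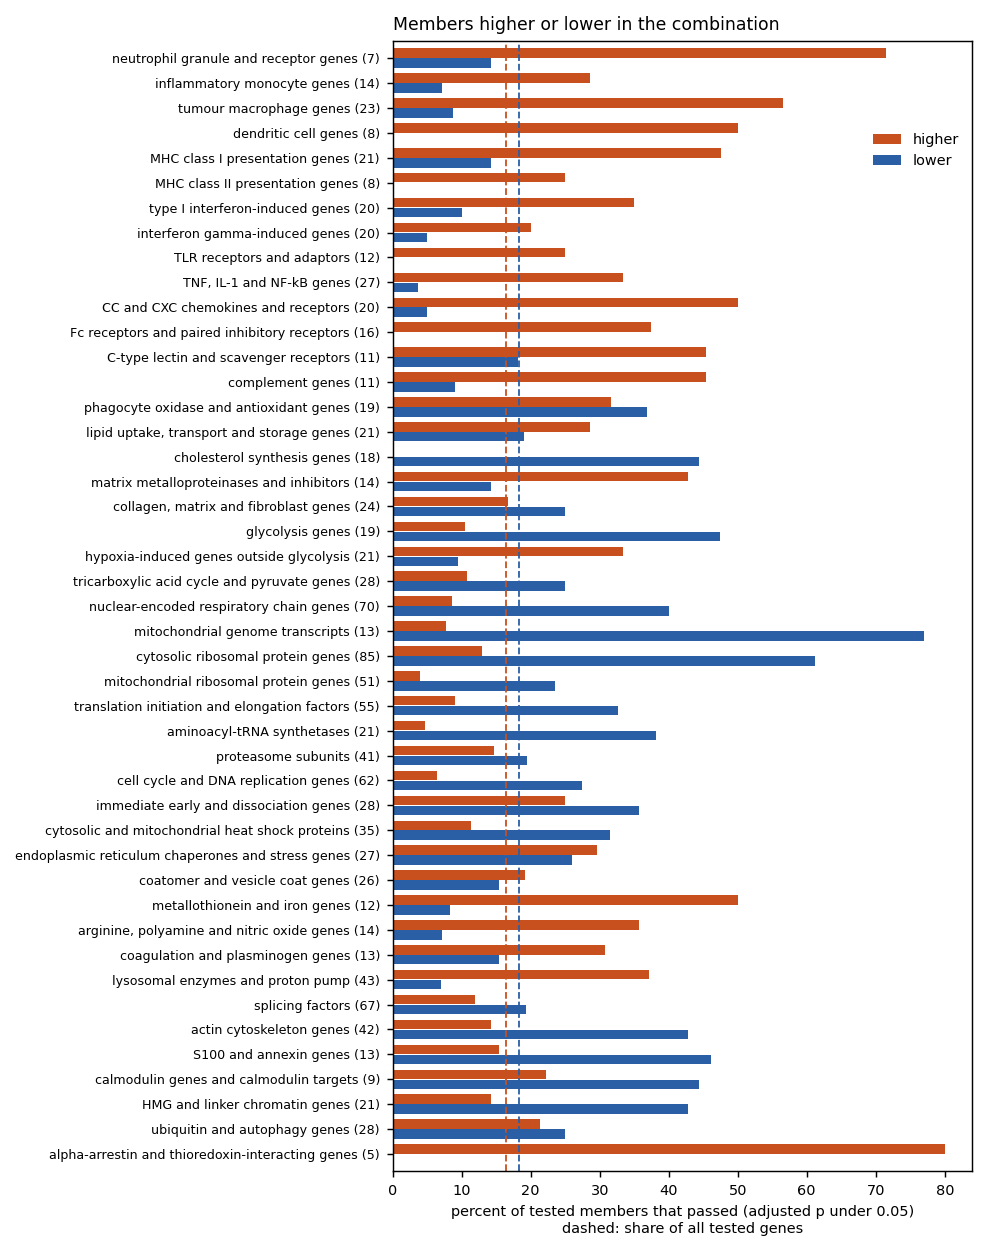
Percent of the tested members of each functional list that passed in either direction, with the number tested in brackets and dashed lines at the shares of all tested genes (16.5% higher, 18.3% lower). Myeloid lists extend to the right on the higher side, and ribosomal, mitochondrial, glycolytic and cholesterol lists on the lower side.

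The combination was also set against each lone treatment. Against minP1 alone 500 genes were higher and 588 lower, 20.0% of the tested genes in all, and against anti-PD-L1 alone 163 were higher and 215 lower, 6.94% in all. These contrasts share the combination samples with the contrast against control. The count against minP1 was 615 without combination replicate 1, 700.0 without combination replicate 2, 690.0 without minP1 replicate 1 and 600.0 without minP1 replicate 3. Against anti-PD-L1 it was 94 without combination replicate 1, 194 without combination replicate 2, 129 without anti-PD-L1 replicate 2 and 111 without anti-PD-L1 replicate 3. Mmp9 averaged 164 ± 58.8 CPM in the combination, 12 ± 5.68 CPM with anti-PD-L1, 8.52 ± 4.53 CPM with minP1 and 3.39 ± 3.69 CPM in control tumours, and was higher in the combination than with minP1 (log2 fold change 4.19 ± 0.54, adjusted p = 2.13e-05) and than with anti-PD-L1 (3.79 ± 0.53, adjusted p = 0.000365). Rsad2 averaged 322 ± 136, 41.5 ± 15.1, 50.5 ± 10.9 and 48.7 ± 23.5 CPM in the same order, with log2 fold changes against minP1 (2.62 ± 0.37, adjusted p = 4.92e-05) and against anti-PD-L1 (2.95 ± 0.39, adjusted p = 0.000365) that both passed. Copb2 averaged 1.88 ± 3.26, 42 ± 12.5, 61.4 ± 21.5 and 97.7 ± 14.6 CPM, and was lower against minP1 (-4.55 ± 0.77, adjusted p = 0.000301) and against anti-PD-L1 (-4.06 ± 0.83, adjusted p = 0.00543). These 3 genes thus differed from both lone treatments, in addition to control.

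Mt1 and H2-K1 passed against control and minP1 and not against anti-PD-L1, while Rpl5 and Hmgcs1 passed against all 3 groups. Mt1 averaged 11792 ± 1678 CPM in the combination, 9718 ± 1077 CPM with anti-PD-L1, 5806 ± 899 CPM with minP1 and 2782 ± 996 CPM in control tumours, with a log2 fold change against minP1 (1.02 ± 0.25, adjusted p = 0.0056) and against anti-PD-L1 (0.28 ± 0.25, adjusted p = 0.518). H2-K1 averaged 6527 ± 1283, 3999.8 ± 882, 3174 ± 462 and 1736 ± 501 CPM in that order, with a log2 fold change against minP1 (1.04 ± 0.25, adjusted p = 0.00498) and against anti-PD-L1 (0.71 ± 0.25, adjusted p = 0.0811). Rpl5 averaged 51.6 ± 16, 409 ± 228, 713 ± 396 and 1152 ± 155 CPM, with a log2 fold change against minP1 (-3.77 ± 0.50, adjusted p = 2.94e-05) and against anti-PD-L1 (-3.00 ± 0.51, adjusted p = 0.00252). For Mt1 and H2-K1 the anti-PD-L1 mean was the nearest to that of the combination. Hmgcs1, at 11.6 ± 5.73, 52.4 ± 7.85, 60.3 ± 27 and 138 ± 40.8 CPM, fell against minP1 (-2.42 ± 0.59, adjusted p = 0.00579) and against anti-PD-L1 (-2.19 ± 0.61, adjusted p = 0.0303).

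**Figure D5:**
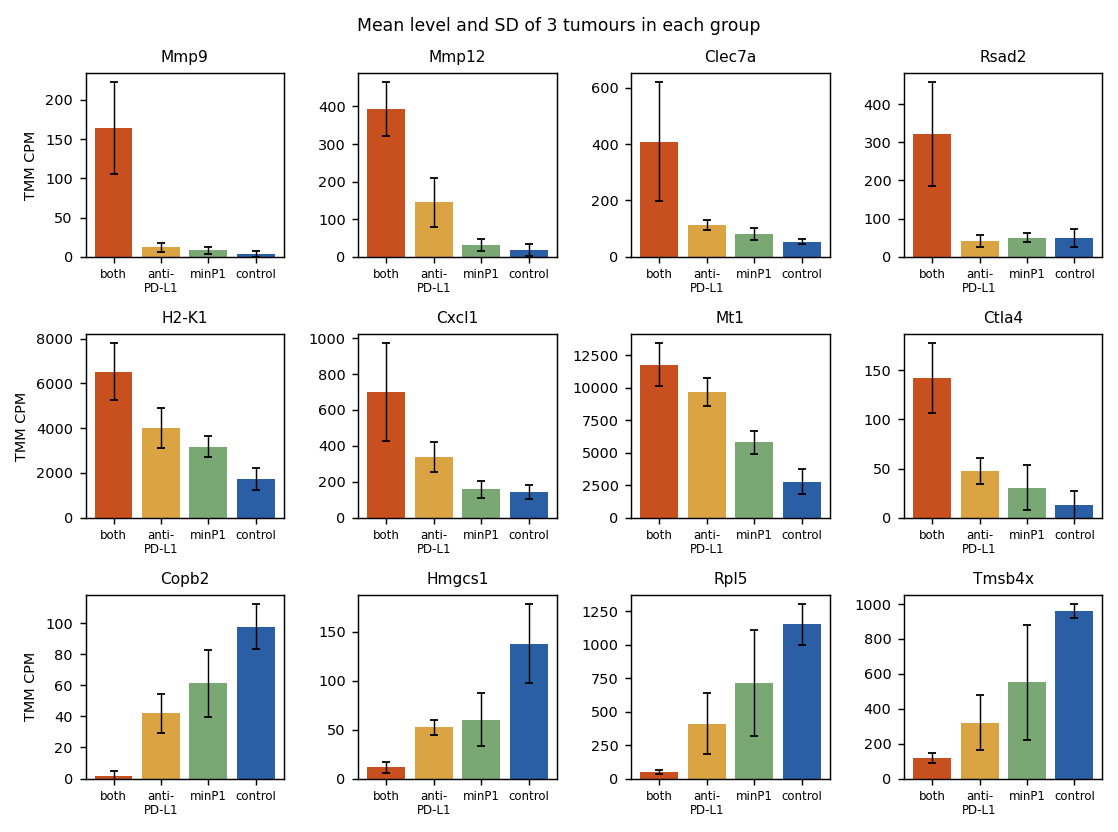
Mean level (TMM CPM, axes from 0) of 12 genes in the combination (both), anti-PD-L1, minP1 and control groups, with bars for the SD of 3 tumours. The combination mean is the highest for 8 genes and the lowest for Copb2, Hmgcs1, Rpl5 and Tmsb4x.

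The share of lower genes was highest among short transcripts. Of 5219 tested genes with an annotated length (95.9%), the shortest of 5 equal bins (median 609 bases) had 15.0% higher and 25.7% lower genes. The longest bin (median 3297 bases) had 15.3% and 15.1%. Spearman's rho of log2 fold change with length was 0.08 and with GC content 0.10, as a description since genes are not independent. Many ribosomal, respiratory and calcium-binding genes that fell are short. Cytosolic ribosomal medians were 681 bases in higher, 628 in lower and 605 in uncalled members. The part of length in these changes was not tested.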

How the data were processed

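The authors deposited 1 table per sample of 5′ SAGE-seq counts per gene symbol, not normalized, per the file headers and the values, which are whole numbers. The submitters' processing notes list mm10, DESeq2, R 3.6.1 and Bowtie2 2.2.5 without their roles. How reads were counted, on which annotation and strand, and what was done with reads of several positions is not given in the sources used. The deposited counts were fitted with edgeR 4.0.16 in R 4.3.3 (quasi-likelihood test, TMM factors, prior count 0.125, all 12 samples in 4 groups) after filterByExpr, with Benjamini-Hochberg adjustment over 5443 genes at 0.05. That filter keeps genes that are high in 1 group, so the tested members of a list are partly sorted by it. Totals were 133917 to 473273 counts per sample. The SE of a log2 fold change is its size divided by the square root of F. Alternatives were DESeq2 1.42.0, limma 3.58.1 with voom, other filters, size factors and samples, equal depth, a replicate block and 2 covariates. The fitting was tested on simulated data.

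The comparison, its gene lists and motifs were chosen with earlier results of these data known. Named genes came from a rule: up to 20 of the largest changes in each direction with at least 20 CPM in 1 group and no overlap, in each of 55 lists up to 5 that passed and up to 2 that did not by smallest p, the 5 most abundant that passed in each direction, and fixed genes of the peptide and antibody pathways. Genes outside this rule were chosen after their values were seen (Abca1, Actb, Adam17, Atp5b, C1qa, C1qb, C1s1, Ccl2, Ccl4, Ccna2, Ccr1, Ccr2, Cd209a, Cdk4, Col1a1, Col1a2, Cox6c, Ctsb, Ctsd, Cxcl2, Eef2, Eif4e3, Flna, Flt3, Fth1, Gapdh, Gm2a, Gpx1, Gsn, H2-Ab1, H2-D1, H2-M3, H2-T23, Hmgb1, Idi1, Ifit1, Ifitm2, Il1b, Il1r2, Il1rn, Irf9, Isg15, Jun, Klf4, Laptm4a, Lpl, Mcm5, Mmp14, Mmp19, Mrc1, Ms4a7, Mt2, Myd88, Nfkb2, Odc1, Pdgfra, Pgk1, Plau, Prdx5, Psme2, Rac2, Slc16a3, Slfn2, Soat1, Sod1, Spp1, Tap1, Tmsb10, Vegfa, Xcr1, Zbtb46). The NF-kB search in chemokine genes and the sterol element search were chosen after values were seen, and the mitochondrial list was matched to the tables' MT- spelling after they were read. Gene coordinates and lengths come from GENCODE vM21 and start-site windows from RefSeq, both on GRCm38. Exact 95% intervals and floors of 3 counts cover counting error only. Some genes are not reported here.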

Additional observations from a re-analysis of the deposited data

How the results depend on the processing

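Depth limits these results: 1 count is a large step in libraries of 133917 to 196109 counts in the combination, and genes under a few counts could not be tested. Higher and lower genes numbered 392 and 389 at equal depth, where fewer genes could be tested. With the Bc1 and Lrrc17 level as a covariate they numbered 338 and 436, and with the number of detected genes 282 and 439, and the cause of these losses was not tested. The count against minP1 was 447 at equal depth, 586 with the Bc1 and Lrrc17 covariate and 443 with the detected-gene covariate, and against anti-PD-L1 it was 101 at equal depth. Leaving out each of the 12 libraries in turn gave 720.0 to 1034 higher and 660.0 to 1020.0 lower genes, 600.0 to 1346 against minP1 and 94 to 499 against anti-PD-L1. Such fits leave 2 samples in a group, whose spread is pooled with the other groups. The other size factors, filters, samples and tools kept these counts within 1.5 times. Whether the replicate numbers of the titles pair the samples cannot be told from 3 libraries per group. Deviations of same-numbered combination and control libraries correlated at 0.000475, 0.0412 and 0.135. Those of libraries with different numbers correlated at -0.0998 to 0.0462. With the replicate number as a block 937 genes were higher and 1035 lower, with Cd74, H2-Aa and Mcm5 added among the genes named above. In that fit 1234 passed against minP1 and 478 against anti-PD-L1.

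Some log2 fold changes of genes named above changed sign. With the Bc1 and Lrrc17 covariate the value was -0.095 for Bc1, 0.32 for Gzmc, -0.39 for Hmgb1, -0.064 for Lrrc17, and -0.088 for Rplp1. With the detected-gene covariate the value was 0.18 for Gzmc, -0.18 for Hmgb1, and 0.27 for Isg15. Without single libraries the values ran from -0.045 to 0.26 for Hmgb1, from -1.14 to 3.62 for Lcn2, from -0.43 to 0.076 for Mmp14, and from -0.16 to 1.0 for Mt2. The causes were not tested, except that the covariate built from Bc1 and Lrrc17 takes up their own change.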
